A study of Mus musculus with 24 samples.

Results

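The 42 genes described here make up the machinery that copies DNA and the switch that starts S phase. They comprise the factors that license replication origins, the Mcm helicase and its activators, the sliding clamp and its loader, the polymerases and primase, the enzymes of nucleotide supply and Okazaki fragment joining, chromatin factors that travel with the fork, and the E2f and cyclin E regulators of the G1/S transition. The genes were listed by name, with 1 probe set each (a single symbol in the platform annotation, and the highest mean over the arrays where a gene had several), and all 42 were measured, of 19938 genes in all. T6E is a line of mouse T-cell acute lymphoblastic leukaemia. Its RNA was hybridised to 24 Affymetrix Mouse Gene 1.0 ST arrays, 3 for each of 8 groups. The cells carried 1 of 4 constructs. R1984A is an intracellular Notch1 that is defective in dimerization, ICN1 is intracellular Notch1, DNMAML is Mastermind-like (MAML) in a dominant negative form, and MigR1 is the empty vector. Each construct was treated for 6 hours with 1 uM compound E, an inhibitor of gamma-secretase (GSI), or with DMSO. The groups are R1984A-GSI, R1984A-DMSO, ICN1-GSI, ICN1-DMSO, DNMAML-GSI, DNMAML-DMSO, MigR1-GSI and MigR1-DMSO. All 8 groups are 1 cell line carrying a construct, and the labels leave unsaid whether a group's 3 samples were grown apart. The p-values therefore reflect the spread among these samples alone, and that spread may be technical.

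As background, origins are licensed in G1, when the origin recognition complex, Cdc6 and Cdt1 load the Mcm helicase onto DNA. At the G1/S transition, cyclin E and its kinase release E2f factors from the retinoblastoma protein, E2f factors switch on most of the genes of this list, and Cdc45 and the GINS complex turn the loaded helicase into a moving fork. In Notch-driven T-cell leukaemia, Notch1 is cleaved by gamma-secretase, its intracellular domain recruits MAML proteins to DNA, and Myc is a main direct target through which the pathway drives growth and entry into the cell cycle.

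Promoter windows were read from the RefSeq promoter table of build GRCm38.p6, from 250 bases before to 50 bases after the start of each gene. A window was found for 34 of the 42 genes. Those not matched were Mcm4, Rfc2, Gins1, Gins2, Gins4, Prim2, Pole and Ccne2. The E2F motif was searched as TTTNGCGC on both strands. It lay in a window of 12 of the 34 genes (35.3%), against 1.57% of the 27025 genes in the table, as a description without a test. The 12 genes were Cdt1, E2f2, Lig1, Mcm3, Mcm5, Mcm6, Mcm7, Orc1, Pola1, Pole2, Rfc3 and Uhrf1. Windows of 4 helicase subunits, of the origin-binding subunit Orc1 and of E2f2 are printed 5′ to 3′ in the direction of the gene, because all carry the motif. Mcm7 and E2f2 each had 2 windows, for 2 start sites, and the 1 that holds the motif is printed. The helicase subunits belong to 1 complex, and Orc1 and E2f2 are among the genes with the widest gaps between group means. Capitals mark the E2F motif in either orientation, and in Mcm5 and Mcm6 matches on both strands overlap and run together.
Mcm3 (chr1:20820263-20820562, - strand): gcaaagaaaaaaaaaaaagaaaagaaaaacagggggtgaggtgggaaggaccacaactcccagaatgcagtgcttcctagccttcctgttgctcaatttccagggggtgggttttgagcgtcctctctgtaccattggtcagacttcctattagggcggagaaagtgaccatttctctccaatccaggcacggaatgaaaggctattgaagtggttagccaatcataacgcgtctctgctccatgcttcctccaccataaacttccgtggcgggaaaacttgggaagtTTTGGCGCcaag
Mcm5 (chr8:75109259-75109558, + strand): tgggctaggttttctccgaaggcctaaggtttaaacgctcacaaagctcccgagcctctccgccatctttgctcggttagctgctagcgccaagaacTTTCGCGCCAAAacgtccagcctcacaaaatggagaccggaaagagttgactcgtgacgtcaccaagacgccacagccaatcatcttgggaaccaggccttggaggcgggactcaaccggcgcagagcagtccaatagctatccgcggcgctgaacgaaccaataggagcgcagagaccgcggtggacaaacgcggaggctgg
Mcm6 (chr1:128359656-128359955, - strand): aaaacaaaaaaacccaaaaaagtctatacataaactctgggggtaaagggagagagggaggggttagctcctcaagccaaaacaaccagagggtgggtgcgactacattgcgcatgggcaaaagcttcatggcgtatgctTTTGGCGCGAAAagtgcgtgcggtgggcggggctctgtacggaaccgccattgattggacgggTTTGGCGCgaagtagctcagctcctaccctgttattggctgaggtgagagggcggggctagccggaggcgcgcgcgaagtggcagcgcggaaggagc
Mcm7 (chr5:138171834-138172133, - strand): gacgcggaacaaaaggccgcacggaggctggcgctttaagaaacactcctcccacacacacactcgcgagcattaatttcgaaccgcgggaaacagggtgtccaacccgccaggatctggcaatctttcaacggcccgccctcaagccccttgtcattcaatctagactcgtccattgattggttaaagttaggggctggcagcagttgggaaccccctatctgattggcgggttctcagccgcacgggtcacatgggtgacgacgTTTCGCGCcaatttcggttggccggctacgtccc
Orc1 (chr4:108579204-108579503, + strand): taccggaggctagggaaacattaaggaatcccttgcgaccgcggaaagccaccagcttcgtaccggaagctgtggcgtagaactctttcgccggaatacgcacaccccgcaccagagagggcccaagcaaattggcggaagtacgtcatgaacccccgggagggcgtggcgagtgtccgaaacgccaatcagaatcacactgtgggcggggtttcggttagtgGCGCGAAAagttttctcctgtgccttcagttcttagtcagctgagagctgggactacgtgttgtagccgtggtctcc
E2f2 (chr4:136172024-136172323, + strand): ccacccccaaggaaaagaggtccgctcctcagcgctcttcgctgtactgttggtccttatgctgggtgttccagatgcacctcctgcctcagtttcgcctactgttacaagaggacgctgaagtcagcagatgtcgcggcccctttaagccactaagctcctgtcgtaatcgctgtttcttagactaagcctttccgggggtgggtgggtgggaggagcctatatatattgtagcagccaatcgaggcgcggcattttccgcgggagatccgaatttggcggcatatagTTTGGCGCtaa

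Counted from the start site of the printed window, the motif ran from base 38 to 45 in Mcm3, from -153 to -142 in Mcm5 with its overlapping matches, from 16 to 23 in Mcm7, from -27 to -20 in Orc1 and from 39 to 46 in E2f2. Mcm6 held 3 matches, an overlapping pair from -110 to -99 and a single one from -47 to -40. The E-box CACGTG, the core motif bound by Myc, lay in 6 of the 34 genes (17.6%, against 8.09% of all genes in the table), which were Chaf1a, Fen1, Lig1, Pola2, Rfc1 and Tyms. The letters CCAAT lay in 20 of the 34 (58.8%, against 41.1%). A match is a description of letters in a window and not a measured site, and a gene without a match lacks only these letters in this window.

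The labels were checked on Nrarp, a direct Notch target. It lay at 4.0, 4.10 and 4.17 on the log2 scale in MigR1-GSI cells, against 5.12, 5.41 and 5.38 in MigR1-DMSO cells, and at 6.33, 6.35 and 6.43 in ICN1-GSI cells. The groups did not overlap, and limma called Nrarp lower in MigR1-GSI than in MigR1-DMSO cells (log2 difference -1.21, SE 0.11, adjusted p = 1.5e-06). Of 10 T-lineage markers 8 were measured, with means from 4.49 (Ptcra) to 10.40 (Cd3e), all above the medians of the arrays, which ran from 3.90 to 4.18. Of the markers of other lineages, 0 of 5 measured B-cell genes, 1 of 6 myeloid genes (Cd68) and 2 of 3 erythroid genes (Alas2 and Epor, at 4.66 and 4.47) lay above those medians. In bulk RNA, a change in the share of cells in S phase and a change in RNA per cell cannot be told apart.

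All of the genes but E2f2 lay above the array medians on every array, and their levels moved little between groups. Means over the 24 arrays ran from 4.06 (E2f2) to 10.77 (Pcna) with a median within-group SD of 0.19 log2 units, but a probe set's level also reflects its probes, so levels are compared here only within a gene. E2f2, a transcription factor that activates S-phase genes, was the 1 member near background, with values from 3.64 to 4.64 that span the array medians. E2f1, its close relative, lay above them. The gap between the highest and lowest of the 8 group means had a median of 0.23 log2 units over the 42 genes, against 0.30 over all 19938 genes and 0.47 over 24 mitosis genes. It was under 0.5 for 41 of the 42, and 0.61 for E2f2. The next widest gaps belonged to Orc1 (0.50), the fork factor Mcm10 (0.50), Pold1, the catalytic subunit of polymerase delta (0.49), Chaf1b, a subunit of the histone chaperone CAF-1 (0.47), and the GINS subunits Gins2 (0.45) and Gins3 (0.45). The narrowest belonged to Pcna (0.11), the sliding clamp, and to Fen1 (0.11), the flap nuclease of Okazaki fragments.

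**Figure D1:**
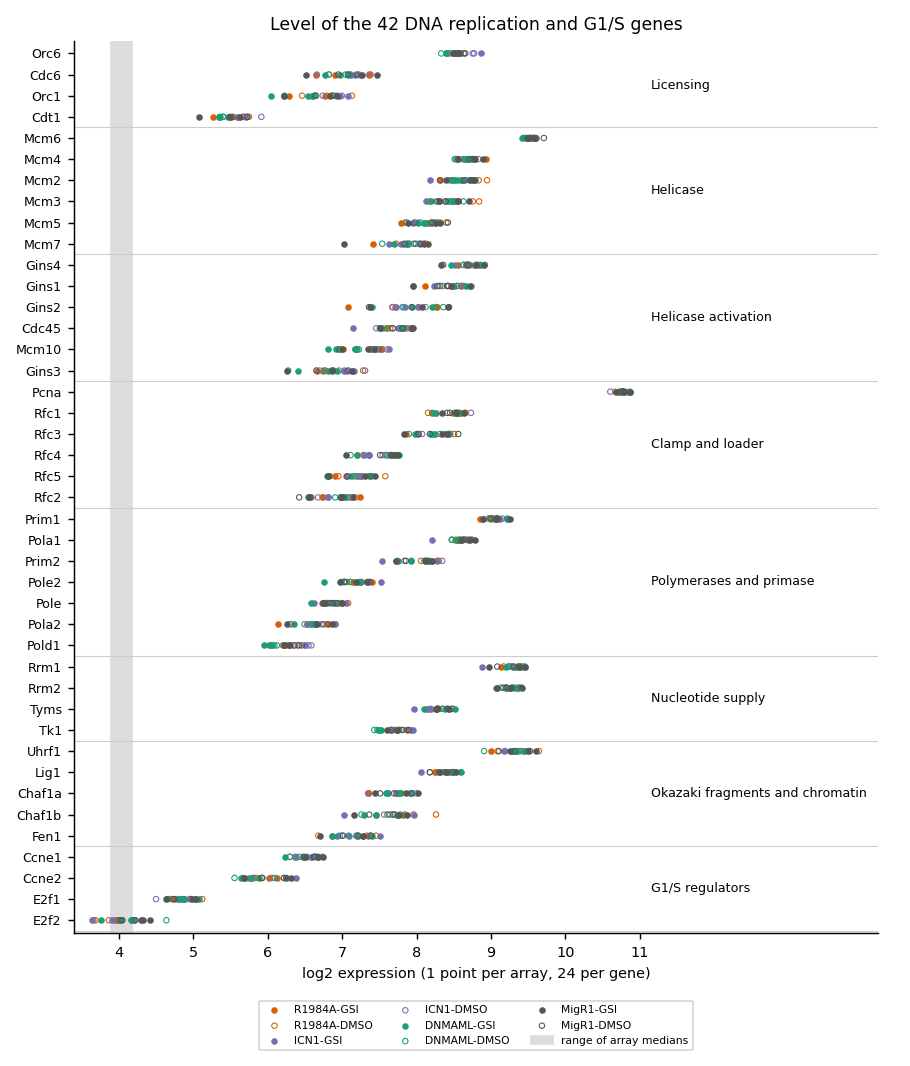
Log2 expression of each of the 42 genes (rows, grouped by role) on the 24 arrays, 1 point per array, coloured by construct, with filled points for GSI and open points for DMSO. Rows differ in width, from 7.08 to 8.43 for Gins2 to a narrow cluster for Pcna, and E2f2 is the row that overlaps the grey band of array medians (3.90 to 4.18).

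The samples numbered 3 stood apart in these genes. The mean of the 42 genes ran from 7.47 to 7.65 on the 8 arrays numbered 3, against 7.73 to 7.85 on those numbered 1 and 7.72 to 7.84 on those numbered 2, so that the array numbered 3 was the lowest of its group in all 8 groups. On each of these 8 arrays, 34 to 39 of the 42 genes lay below the mean of their group. The labels do not say what the number stands for. Other genes of like level (means of 6 to 11, 5309 genes) were also lower there, by a mean deviation of -0.19 to -0.06 from the group mean, and genes with means under 4 were higher, by 0.04 to 0.09. The medians of these 8 arrays were 4.05 to 4.18, against 3.90 to 4.07 for the others. The part of this difference in signal range in the shift of the 42 genes was not tested. In the comparisons below, leaving out 1 array of a group unbalances the replicate numbers, so the shift enters the difference.

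The shift was uneven among the genes. Set against the other arrays of its groups, Gins2 had a mean difference of -0.60 on the arrays numbered 3, Orc1 one of -0.47, Chaf1b one of -0.44, and Rfc3, a subunit of the clamp loader, one of -0.40. At the other end Pcna (0.00), Rrm2 (0.00), the regulated subunit of ribonucleotide reductase, and Mcm6 (-0.01) did not follow it, and 16 genes were lowest on the array numbered 3 in all 8 groups. By its median over the 42 genes, the replicate number took 52.7% of a gene's sum of squares over the 24 arrays, the 8 groups took 16.7% and the remainder 26.1%. The same medians were 17.9%, 29.8% and 44.4% over all genes, 26.7%, 37.1% and 26.2% over the genes of like level, and 26.8%, 57.8% and 16.1% over the mitosis genes. The replicate number exceeded the groups in 30 of the 42 genes. It did so in 6851 of all 19938 genes and in 2144 of the 5309 genes of like level. The counts were 22 of 45 other replication genes and 5 of 24 mitosis genes. Pold1 was the member with the largest share between groups (80.1%), with 3.44% for the replicate number.

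**Figure D2:**
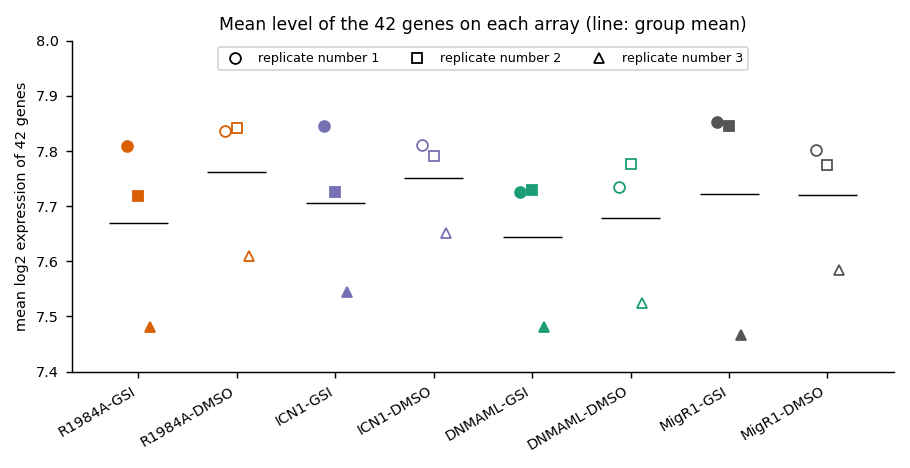
Mean log2 expression of the 42 genes on each array, by group, with a symbol for the replicate number, colours by construct and a line at the group mean. The arrays numbered 3 (triangles, 7.47 to 7.65) lie under the other arrays of their group in all 8 groups, and the 8 group means lie between 7.64 and 7.76.

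The correlation among the members was lower once this number was removed. Across the 24 arrays, with group means removed, the median correlation over the 861 pairs of genes was 0.57, and 88.5% of pairs were positive. With the replicate number also removed, the median was 0.11. These arrays share a cell line and a platform, so the correlations are given as descriptions. With the mean of the other members, 26 genes had a within-group correlation above 0.8, led by Rfc3 (0.94), Orc1 (0.92) and Mcm3 (0.92), and 7 were below 0.3, namely Mcm6, Pcna, Pola1, Pold1, Rrm2, E2f1 and E2f2.

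The first comparison asked what loss of Notch cleavage did to the replication genes in cells with the empty vector. The genes kept their levels within narrow limits while Myc was at 8.08, 8.18 and 7.07 in MigR1-GSI cells, against 9.32, 9.27 and 9.24 in MigR1-DMSO cells (difference -1.5, adjusted p = 7.0e-04, limma). In the same arrays 0 of the 42 genes were called in either direction at an adjusted p under 0.05 (Benjamini-Hochberg, limma over all 19938 genes), and 0 passed an unadjusted p of 0.05, with 0.166% of all genes called and 4.88% under the unadjusted threshold. At 0.166%, 0.0695 calls among 42 genes would be made at the rate of all genes, so the absence of calls is not a result about these genes. What the data bound is the size. Differences ran from -0.20 (Mcm7) to 0.26 (E2f2) with a median of 0.01, 24 of the 42 were positive, and the 95% confidence intervals of 34 genes lay within 0.5 log2 units of 0 and those of all 42 within 1, that is, within a 2-fold change.

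By role, 1 of 4 licensing genes, 3 of 6 helicase genes, 4 of 6 helicase activators and 4 of 4 G1/S regulators were on the higher side in MigR1-GSI cells, without a call. Without MigR1-GSI number 1, 2 of the 4 regulators were. Mcm7, a subunit of the replicative helicase, had values of 8.15, 8.10 and 7.02 in MigR1-GSI cells, against 8.06, 7.99 and 7.84 in MigR1-DMSO cells. The groups overlap, and 1 array, MigR1-GSI number 3, holds the low value. The difference was -0.20 (interval -0.64 to 0.23, adjusted p = 1.00, limma) and 0.16 without that array. Cdt1, which loads the helicase and is destroyed in S phase, was at 5.50, 5.62 and 5.08 in MigR1-GSI cells, against 5.72, 5.53 and 5.49 in MigR1-DMSO cells (difference -0.18, interval -0.45 to 0.08, and -0.023 without MigR1-GSI number 3). E2f2 was at 4.30, 4.33 and 4.42 in MigR1-GSI cells, against 4.02, 4.22 and 4.05 in MigR1-DMSO cells. Those groups do not overlap, the difference was 0.26 (interval -0.05 to 0.56, adjusted p = 1.00, limma), and these values lie close to the array medians.

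**Figure D3:**
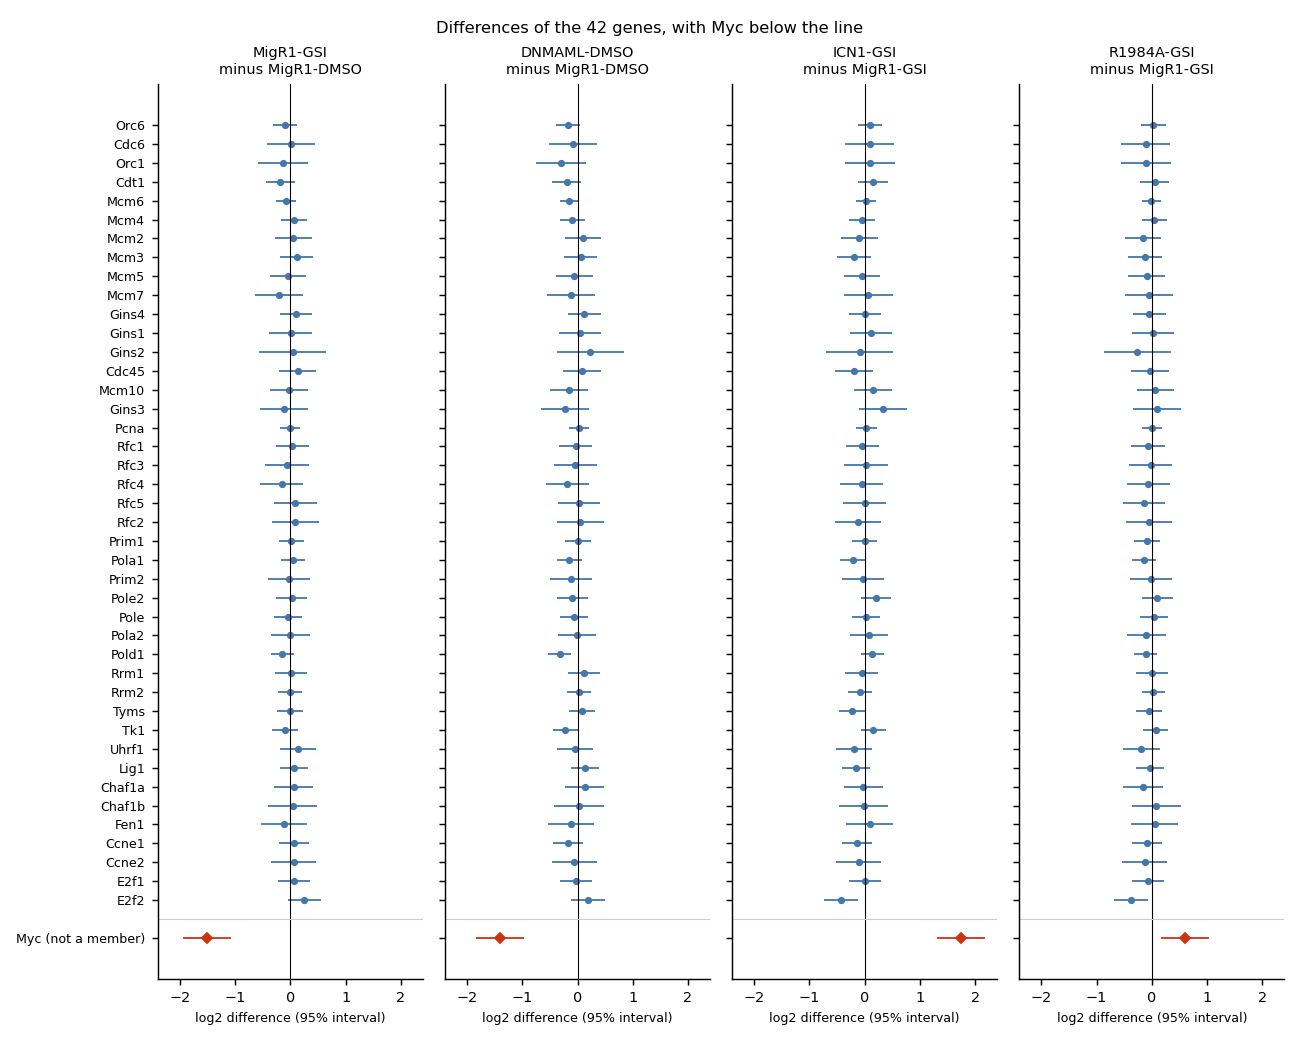
Log2 difference (point) with its 95% confidence interval (bar) for each of the 42 genes in 4 comparisons, with Myc, which is not of the list, below the line. The 42 intervals stay between -0.91 and 0.86 in all the group comparisons, while Myc lies at -1.5, -1.40, 1.75 and 0.61.

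With DNMAML in place of the empty vector and no inhibitor, the widest difference among the 42 genes was that of Pold1. Pold1 is the catalytic subunit of polymerase delta, which copies the lagging strand and proofreads. Pold1 was at 6.06, 6.12 and 6.09 in DNMAML-DMSO cells, against 6.46, 6.42 and 6.36 in MigR1-DMSO cells. The groups are well apart, and the difference of -0.32 (SE 0.10, interval -0.53 to -0.11) missed the threshold with an adjusted p of 0.134 in limma. The numbers pair the samples of these groups, and with the replicate number as a block the adjusted p was 0.0563. With limma's array weights it was 0.0432, which is a call. The adjusted p of 0.134 was the smallest of any of the 42 genes in the 15 comparisons. In DNMAML-GSI cells Pold1 lay at 6.04, 6.03 and 5.95, against 6.21, 6.30 and 6.29 in MigR1-GSI cells, again without overlap (difference -0.26, adjusted p = 0.591, limma).

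In DNMAML-DMSO against MigR1-DMSO cells, 0 of the 42 genes were called, with 1.94% of all genes called. Pold1 alone passed an unadjusted p of 0.05, a share of 2.38%, against 10.4% of all genes. The other differences ran up to 0.23 (Gins2), with a median of -0.04 and 17 positive, and 33 of the 42 intervals lay within 0.5 of 0. The 4 licensing genes were all on the lower side, from -0.30 to -0.08, with Orc1 first, and all 4 stayed there with any 1 array left out. Orc1, the largest subunit of the origin recognition complex, was at 6.65, 6.62 and 6.22 in DNMAML-DMSO cells, against 6.88, 6.86 and 6.64 in MigR1-DMSO cells, where the array numbered 3 is the low one on both sides and the groups overlap. Its difference was -0.30 (interval -0.75 to 0.16, adjusted p = 0.764, and 0.183 with the replicate block, both limma), and -0.16 without DNMAML-DMSO number 3. Gins2, a subunit of the GINS complex, was at 8.36, 8.26 and 7.81 in DNMAML-DMSO cells, against 8.43, 7.93 and 7.36 in MigR1-DMSO cells. Its difference of 0.23 (adjusted p = 0.897, limma) became -0.04 without MigR1-DMSO number 3, which leaves the replicate numbers unbalanced. Set against its namesake, the DNMAML-DMSO sample was lower for number 1 and higher for numbers 2 and 3.

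Under the inhibitor, DNMAML-GSI against MigR1-GSI cells again gave 0 calls among the 42 genes, with 0.191% of all genes called. E2f2 and Pold1 passed an unadjusted p of 0.05 (4.76%, against 6.26% of all genes). Differences ran from -0.36 (E2f2) to 0.07 (Rfc4), with a median of -0.07 and 11 of 42 positive. Mcm10, which helps to start the helicase, was at 7.17, 6.80 and 6.92 in DNMAML-GSI cells, against 7.42, 7.34 and 7.0 in MigR1-GSI cells (difference -0.29, adjusted p = 0.878, and 0.239 with the replicate block, limma). Its group means were lowest in the DNMAML groups, at 6.96 ± 0.18 in DNMAML-GSI and 7.13 ± 0.15 in DNMAML-DMSO cells (SD, n = 3 each), while the other group means lay between 7.25 and 7.46. With the block, 6 of the 42 genes passed an unadjusted p of 0.05, all 6 on the lower side, against 10.7% of all genes in that fit. This count and the 6 of R1984A-GSI against R1984A-DMSO cells are the highest of the block fit. The other comparisons of groups gave 0 to 5.

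When the inhibitor was added to DNMAML cells, 0 of 42 were called, 0 passed an unadjusted p of 0.05, and 0.00502% and 2.54% of all genes did. Differences ran from -0.30 (E2f2 and Gins2) to 0.13 (E2f1). Gins2 lay at 8.2, 7.94 and 7.4 in DNMAML-GSI cells, against 8.36, 8.26 and 7.81 in DNMAML-DMSO cells, groups that overlap and in which the array numbered 3 is the lowest on both sides (difference -0.30, interval -0.90 to 0.31). Without DNMAML-GSI number 3 it was -0.073.

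**Figure D4:**
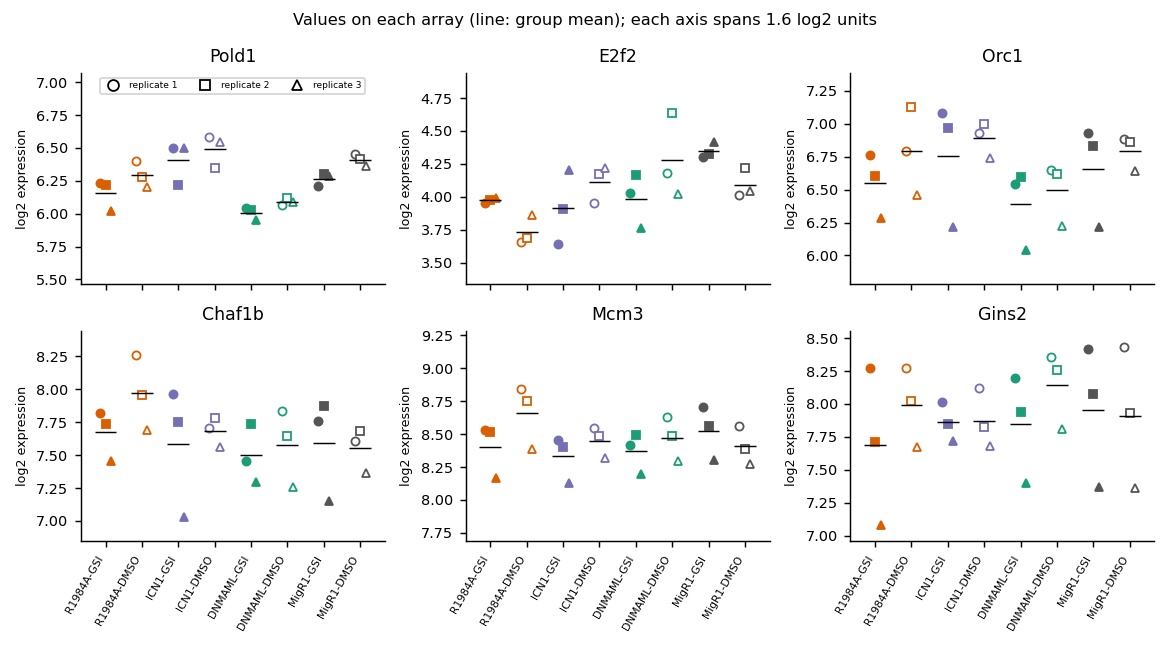
Log2 expression of Pold1, E2f2, Orc1, Chaf1b, Mcm3 and Gins2 on each of the 24 arrays by group, with a symbol for the replicate number and a line at the group mean, each axis spanning 1.6 log2 units. Pold1 has its lowest group means in the DNMAML groups (6.01 and 6.09), and in Orc1, Chaf1b, Mcm3 and Gins2 the triangles of arrays numbered 3 are the lowest of every group.

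ICN1, which acts without cleavage, was set against the empty vector under the inhibitor to ask which genes restored Notch signalling would raise. Myc exceeded its MigR1-GSI level by 1.75 in ICN1-GSI cells (adjusted p = 1.0e-05, limma), and the replication genes had a median difference of -0.01, with 20 of 42 positive. Of the 42 genes, 0 were called, with 2.35% of all genes called. E2f2 alone passed an unadjusted p of 0.05, 2.38% of the list against 10.7% of all genes. It was at 3.64, 3.91 and 4.20 in ICN1-GSI cells, against 4.30, 4.33 and 4.42 in MigR1-GSI cells, without overlap, with a difference of -0.43 (interval -0.74 to -0.13, adjusted p = 0.172, limma). That is the widest difference of any of the genes in the comparisons of groups, on a probe set at the level of the array medians. At the other end, Gins3, a GINS subunit, was at 7.16, 7.02 and 7.07 in ICN1-GSI cells, against 6.87, 7.12 and 6.26 in MigR1-GSI cells, with overlap (difference 0.33, interval -0.10 to 0.77). The low value is again MigR1-GSI number 3, and without that array the difference was 0.087.

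The 4 licensing genes, Orc1, Orc6, Cdc6 and Cdt1, had differences of 0.09 to 0.15, none called. Without MigR1-GSI number 3, Cdc6 was at -0.20, Orc1 at -0.13 and Cdt1 at -0.0096, so 1 of the 4 was on the higher side. Pole2, the second subunit of polymerase epsilon, differed by 0.21 (interval -0.07 to 0.49, adjusted p = 0.692, limma), and by 0.11 without that array. Tyms, thymidylate synthase, was at 8.2, 8.15 and 7.96 in ICN1-GSI cells, against 8.44, 8.27 and 8.26 in MigR1-GSI cells (difference -0.23, interval -0.46 to 0.01, adjusted p = 0.5, limma). The ranges do not overlap. Pola1, the catalytic subunit of polymerase alpha, differed by -0.22 (adjusted p = 0.477, limma), with the array numbered 3 of ICN1-GSI at 8.2 and the others of that group at 8.56 and 8.69. Without that array the difference was -0.079.

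The dimerization-defective form was set against the same MigR1-GSI arrays. In R1984A-GSI cells 0 of the 42 genes were called and 1, E2f2, passed an unadjusted p of 0.05, with 1.36% and 7.51% of all genes. E2f2 was at 3.95, 3.97 and 3.99 in R1984A-GSI cells, below the same MigR1-GSI values (difference -0.38, interval -0.68 to -0.07, adjusted p = 0.450, limma). The E2f2 differences of DNMAML-GSI (-0.36), ICN1-GSI (-0.43) and R1984A-GSI (-0.38) share these 3 MigR1-GSI arrays, so they are not separate observations of E2f2. The median over the 42 genes was -0.05, with 13 positive. Gins2 was at 8.28, 7.71 and 7.08 in R1984A-GSI cells, against 8.42, 8.08 and 7.37 in MigR1-GSI cells (difference -0.27, adjusted p = 1.00, limma), and its difference was 0.04 without R1984A-GSI number 3.

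The comparison of R1984A with ICN1 was made to ask whether dimerization of Notch on paired sites matters for these genes. Notch1 itself differed by -0.25 between R1984A-GSI and ICN1-GSI cells (interval -0.51 to 0.02). It differed by -0.27 between R1984A-DMSO and ICN1-DMSO cells (interval -0.53 to -0.005), and neither was called. A difference in construct level and a loss of dimerization therefore cannot be told apart here. Under the inhibitor, Myc was lower in R1984A-GSI than in ICN1-GSI cells (difference -1.14, adjusted p = 0.00522, limma), and 0 of the 42 genes were called, with 1.1% of all genes called. Pold1 alone passed an unadjusted p of 0.05 (2.38%, against 8.88% of all genes). It was at 6.24, 6.22 and 6.02 in R1984A-GSI cells, against 6.50, 6.22 and 6.50 in ICN1-GSI cells, with overlap (difference -0.25, interval -0.46 to -0.04, adjusted p = 0.422, limma). The 4 licensing genes had differences from -0.20 to -0.07, though Orc6 was at 0.060 without ICN1-GSI number 1, and Tyms differed by 0.18 (interval -0.06 to 0.41). The median was -0.04, with 15 positive, and 34 of the 42 intervals lay within 0.5 of 0.

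Without the inhibitor, ICN1-DMSO against MigR1-DMSO cells gave 0 calls and 0 genes at an unadjusted p of 0.05 among the 42, with 0.727% and 6.09% of all genes. Differences ran from -0.15 (Rfc4) to 0.19 (Cdt1), the narrowest span of the 12 comparisons of groups, with 26 positive and all 7 polymerase and primase genes on the higher side, by 0.01 to 0.15. Without MigR1-DMSO number 3, 3 of the 7 were. Cdt1 was at 5.91, 5.67 and 5.72 in ICN1-DMSO cells, against 5.72, 5.53 and 5.49 in MigR1-DMSO cells (difference 0.19, interval -0.08 to 0.45).

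R1984A-DMSO cells gave the widest positive difference, that of Chaf1b, which with Chaf1a deposits new histones behind the fork. It was at 8.26, 7.96 and 7.69 in R1984A-DMSO cells, against 7.61, 7.68 and 7.36 in MigR1-DMSO cells. The ranges lie side by side without overlap, and the difference was 0.42 (SE 0.22, interval -0.03 to 0.86, adjusted p = 0.794, limma). The numbers pair these samples, and with the replicate block the adjusted p was 0.115. Without R1984A-DMSO number 1 the difference was 0.27. Mcm3, a helicase subunit, was at 8.84, 8.75 and 8.39 in R1984A-DMSO cells, against 8.57, 8.39 and 8.27 in MigR1-DMSO cells, with overlap (difference 0.25, interval -0.05 to 0.55, adjusted p = 0.867, and 0.161 with the block). All 6 helicase activators were on the higher side, by 0.08 to 0.19, none called. Without MigR1-DMSO number 3 their median was 0.037 in place of 0.13, and Gins2 was at -0.19 and Mcm10 at 0.0079. Without R1984A-DMSO number 1, 4 of the 6 were on the higher side. Of the 42 genes 0 were called and 1, E2f2, passed an unadjusted p of 0.05, with 0.978% and 6.66% of all genes.

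Against ICN1-DMSO, R1984A-DMSO cells gave 0 calls and again 1 gene, E2f2, at an unadjusted p of 0.05, with 0.963% and 7.07% of all genes. E2f2 was at 3.66, 3.69 and 3.86 in R1984A-DMSO cells, against 3.95, 4.17 and 4.22 in ICN1-DMSO cells and 4.02, 4.22 and 4.05 in MigR1-DMSO cells, so its values in R1984A-DMSO cells lay under both sets and under the array medians of 3.90 to 4.18. The differences were -0.38 against ICN1-DMSO (adjusted p = 0.429) and -0.36 against MigR1-DMSO (adjusted p = 0.562, both limma), and they share the R1984A-DMSO arrays. Chaf1b differed by 0.29 (interval -0.16 to 0.73), and by 0.14 without R1984A-DMSO number 1, and Pold1 differed by -0.20 (interval -0.41 to 0.01). Of the 6 helicase genes 5 were on the higher side, from -0.02 to 0.21, and 4 without R1984A-DMSO number 1.

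The inhibitor itself was next compared in cells whose Notch signal does not need cleavage. In ICN1 cells 0 of 42 genes were called and 0 passed an unadjusted p of 0.05, with 0% and 2.37% of all genes, and the median was -0.06 with 9 of 42 positive. Cdt1 was at 5.70, 5.34 and 5.6 in ICN1-GSI cells, against 5.91, 5.67 and 5.72 in ICN1-DMSO cells (difference -0.22, interval -0.48 to 0.04). In R1984A cells the count was again 0 by both thresholds, with 0% and 3.18% of all genes, and the median was -0.11 with 9 of 42 positive, the lowest median of the 12 comparisons of groups. Gins2 and Chaf1b differed by -0.30 each and Mcm7 by -0.28. Without R1984A-GSI number 3 the difference of Gins2 was 0.0048 and that of Mcm7 -0.13, and without R1984A-DMSO number 1 that of Chaf1b was -0.15. The helicase subunits Mcm2 and Mcm3 were named after their values were seen. Mcm2 was at 8.51, 8.58 and 8.32 in R1984A-GSI cells, against 8.95, 8.83 and 8.46 in R1984A-DMSO cells (difference -0.28, interval -0.61 to 0.05). Mcm3 was at 8.53, 8.52 and 8.16 in R1984A-GSI cells, against 8.84, 8.75 and 8.39 in R1984A-DMSO cells (difference -0.26, interval -0.56 to 0.04).

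In this R1984A comparison, each array numbered 1, 2 or 3 was lower in R1984A-GSI than its namesake in R1984A-DMSO for both Mcm2 and Mcm3. With the replicate number as a block, 6 of the 42 genes passed an unadjusted p of 0.05, all on the lower side, against 7.86% of all genes in that fit, and the smallest adjusted p was 0.456 (Mcm3, limma). The correlations between same-numbered samples did not all pass 0.1 here, so the number does not pair these groups by the rule used.

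Whether constructs changed the response to the inhibitor was tested as a difference of differences against MigR1 cells. For DNMAML 0 of the 42 genes were called and 1, E2f2, passed an unadjusted p of 0.05 (difference -0.55, SE 0.21, adjusted p = 1.00, limma), with 0.00502% and 3.11% of all genes. For ICN1 the counts were 0 and 1, again E2f2 (-0.45, adjusted p = 1.00, limma), with 0.015% and 3.19% of all genes. For R1984A they were 0 and 0, with 0.0251% and 3.52% of all genes, and Mcm3 was lowest at -0.37 (interval -0.80 to 0.05). These 3 tests share the MigR1 arrays, in which E2f2 differed by 0.26 between MigR1-GSI and MigR1-DMSO, and their intervals are wider, from -1.20 to 0.81 over 126 values.

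Over the 12 comparisons of groups, the 504 differences of the 42 genes ran from -0.43 to 0.42, or from 0.741-fold to 1.34-fold. Their 95% intervals ran from -0.91 to 0.86, or from 0.533-fold to 1.82-fold, and 388 of the 504 lay within 0.5 of 0. With the replicate number as a block, the intervals were narrower. They ran from -0.71, in ICN1-GSI against MigR1-GSI cells, to 0.68, in R1984A-DMSO against MigR1-DMSO cells. In that fit 36 to 42 of the 42 intervals of a comparison lay within 0.5 of 0. A change of 2-fold or more lay outside the interval of each of the 42 genes in each of these comparisons, and smaller changes lay inside many of the intervals. In the fit without the block, 8 of the 504 differences passed an unadjusted p of 0.05, and they came from 2 genes, Pold1 and E2f2. At the rates of all genes in that fit, the 42 would hold from 0 to 0.988 calls in a comparison, so counts of 0 say little about them beyond these bounds. With the replicate number as a block, 0 to 6 of the 42 genes passed an unadjusted p of 0.05 in a comparison. Those that passed included Mcm10, Chaf1b, Mcm3 and Gins2. The 2 counts of 6 stood against 10.7% and 7.86% of all genes in that fit. By the rule used, the number pairs only some of these comparisons. Most differences did not pass in either fit, so the direction of most was not settled. With 1 array or another left out, 309 of the 504 took both signs. The median over the 42 genes also lay on both sides of 0 in each of the 15 comparisons over the alternatives. Leaving out 1 array of a group also unbalances the replicate numbers, so a change of sign can come from the shift of the arrays numbered 3. These changes of sign therefore do not measure how well a direction is settled. With samples of the same number set against each other, the difference in the mean of the 42 genes kept 1 sign over the 3 numbers in 5 of the 12 comparisons. It was 0.034, 0.068 and 0.026 for R1984A-DMSO against MigR1-DMSO, and 0.0094, 0.017 and 0.068 for ICN1-DMSO against MigR1-DMSO, where the numbers pair the samples. It was -0.0094, -0.049 and -0.043 for DNMAML-GSI against DNMAML-DMSO, which the numbers also pair. For R1984A-GSI it was -0.028, -0.12 and -0.13 against R1984A-DMSO, and -0.038, -0.0079 and -0.063 against ICN1-GSI. These are descriptions, with no test.

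Pold1 was the member whose groups were ordered most clearly. From low to high its group means were 6.01 ± 0.05 in DNMAML-GSI, 6.09 ± 0.03 in DNMAML-DMSO, 6.16 ± 0.12 in R1984A-GSI, 6.27 ± 0.05 in MigR1-GSI, 6.29 ± 0.10 in R1984A-DMSO, 6.40 ± 0.16 in ICN1-GSI, 6.41 ± 0.05 in MigR1-DMSO and 6.49 ± 0.13 in ICN1-DMSO cells (SD, n = 3 each). The means of neighbours in this order differed by less than the larger of their SDs, except those of DNMAML-GSI and DNMAML-DMSO, which differed by -0.08 (adjusted p = 1.00, limma). Myc, on the same arrays, was lowest in DNMAML-GSI cells (7.30 ± 0.39) and at 7.88 ± 0.21 in DNMAML-DMSO, 8.38 ± 0.21 in R1984A-GSI, 7.78 ± 0.61 in MigR1-GSI, 8.59 ± 0.13 in R1984A-DMSO, 9.52 ± 0.12 in ICN1-GSI, 9.28 ± 0.04 in MigR1-DMSO and 9.51 ± 0.03 in ICN1-DMSO cells. Pold1 spanned 0.49 log2 units over the groups. The window of Pold1 held none of the 3 motifs.

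**Figure D5:**
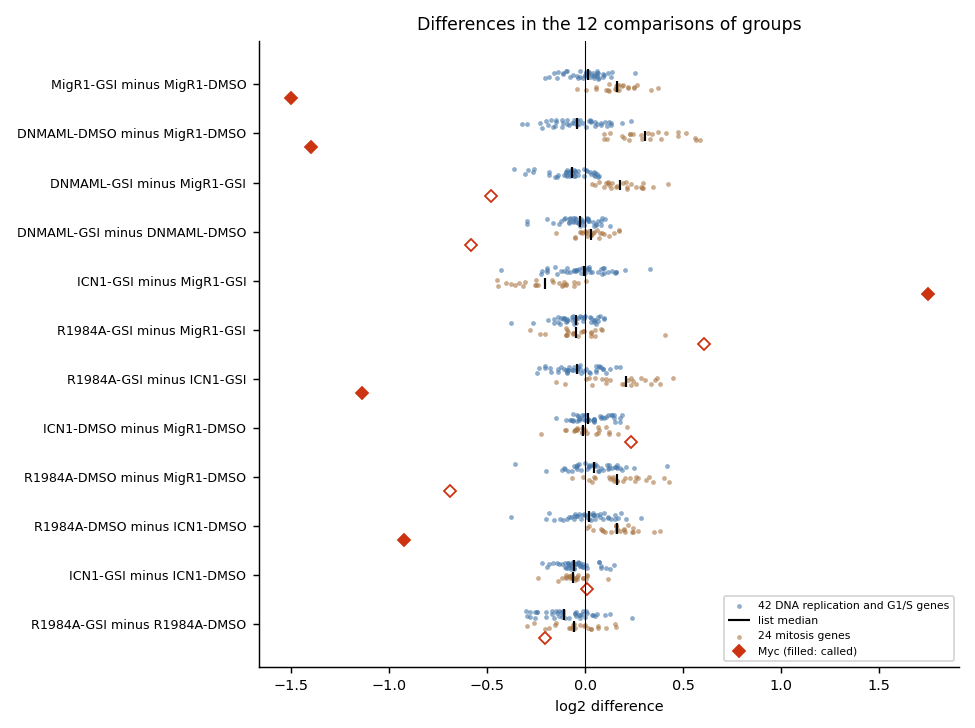
Log2 differences in the 12 comparisons of groups, with 1 point for each of the 42 replication and G1/S genes (blue) and each of 24 mitosis genes (tan), a black mark at the median of each list, and Myc as a diamond that is filled where limma called it. The blue points stay within -0.43 and 0.42 in all rows, and the tan median lies at 0.31 for DNMAML-DMSO and at -0.20 for ICN1-GSI.

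Genes of the same pathways outside the list were described for comparison. Of 47 other replication genes 45 were measured, among them Orc2, Orc3, the Rpa subunits, Dnmt1, Cdk2, E2f3, E2f7, E2f8, Rb1 and Rbl1. Of the 45, 0 were called in any of the 15 comparisons by limma, with 0 to 5 at an unadjusted p of 0.05. The highest count, 5 of 45, was in ICN1-GSI against MigR1-GSI cells. There 10.7% of all genes passed, which is a similar share. Of 25 mitosis genes 24 were measured. In DNMAML-DMSO against MigR1-DMSO cells all 24 were on the higher side, with a median of 0.31 against -0.04 for the replication genes, and 3 were called, namely Nusap1 (0.59, adjusted p = 0.0230), Tpx2 (0.57, adjusted p = 0.0204) and Ccnb2 (0.47, adjusted p = 0.0256, all limma). Nusap1 and Tpx2 organise the spindle, and Ccnb2 is a mitotic cyclin. In ICN1-GSI against MigR1-GSI cells the mitosis median was -0.20, with 1 of 24 positive and 0 called, and the replication median was -0.01. Ttk, the spindle checkpoint kinase, was called higher in R1984A-GSI than in MigR1-GSI cells (0.41, adjusted p = 0.0486) and than in ICN1-GSI cells (0.45, adjusted p = 0.0313), and in R1984A-DMSO than in MigR1-DMSO cells (0.43, adjusted p = 0.0422, limma). The 2 calls in R1984A-GSI cells share those arrays. In the order given, the mitosis medians were -0.05, 0.21 and 0.16, with 8, 22 and 22 of 24 positive. Of all genes 1.36%, 1.1% and 0.978% were called. No difference between the lists was tested.

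The differences were also set out by promoter motif, without a test. In DNMAML-DMSO against MigR1-DMSO cells the 12 genes with the E2F motif had a median difference of -0.07 and the 22 genes with a window and no such motif -0.02. In ICN1-GSI against MigR1-GSI cells the medians were -0.01 and 0.00. For the E-box the medians were 0.04 in 6 genes with it and -0.07 in 28 without it for DNMAML-DMSO, and -0.03 and 0.01 for ICN1-GSI. Pcna and Tk1, thymidine kinase, each had a second probe set. For Pcna both sets had a mean of 10.77, and for Tk1 the second set, with a mean of 6.30, had differences from -0.30 to 0.13. Neither second set was called in any comparison.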

How the data were processed

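Values were read from the series' table of 35556 probe sets by 24 arrays. The deposited values are log2 expression, from 1.28 to 13.47, read as log2 from that range. Oligo and limma are named in the submitters' processing notes, without versions or steps, and the authors' background correction and normalization are not given in the sources used here. No further scaling was applied. Symbols came from the platform annotation (21789 with 1 symbol, 1621 with several and 12146 unnamed). For the 999 genes with several probe sets, the one with the highest mean was kept, which left 19938 genes. All 42 members matched a RefSeq gene of the same symbol.

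limma 3.58.1 in R 4.3.3 fitted 1 mean per group over the 24 arrays (16 residual and 6.56 prior degrees of freedom). Tests were two-sided moderated tests, with Benjamini-Hochberg adjustment across all 19938 genes and a threshold of 0.05 for a call. Unless another fit is named, p-values are from this one. 95% confidence intervals are those of limma, are not adjusted for the number of genes, and cover the spread between arrays. The number of arrays limits the precision. There were 12 comparisons of groups and 3 of the response to GSI. The script was tested on simulated data that held no shift by replicate number and no correlation between genes, so that test does not cover these. Shares of variation are sums of squares for group, replicate number and remainder.

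The members, the lists and the tests were chosen with earlier results of these data known. The rule for names takes every called member, up to 3 members with the largest positive and 3 with the largest negative difference per comparison, and up to 4 called genes of the other lists. Several names fall outside it. They include Pold1 in DNMAML-GSI cells, Mcm2 and Mcm3 in R1984A-GSI cells, and genes named as part of a role, such as the licensing genes. Rb1, E2f7, Cdc25a and Pold4, which were not called, also fall outside it.

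Sample titles carry a replicate number, 1 to 3, within each group. It was taken to pair samples where each same-numbered pair deviated from its group means with a correlation above 0.1. The lowest such correlation was 0.158 for MigR1-GSI against MigR1-DMSO, 0.114 for DNMAML-DMSO against MigR1-DMSO, 0.225 for DNMAML-GSI against MigR1-GSI, 0.168 for DNMAML-GSI against DNMAML-DMSO, 0.144 for ICN1-DMSO against MigR1-DMSO, 0.203 for R1984A-DMSO against MigR1-DMSO, 0.194 for R1984A-DMSO against ICN1-DMSO and 0.106 for the DNMAML response. It was 0.0777 or lower for the others. Alternatives were the replicate block, array weights, a filter on dim genes, a second quantile normalization, every probe set, only the groups compared, each array left out, and all arrays numbered 3 left out.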

Additional observations from a re-analysis of the deposited data

How the results depend on the processing

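Of 213 recomputed counts of called members, over the 15 comparisons and the alternatives, 212 were 0 as reported. With array weights the count in DNMAML-DMSO against MigR1-DMSO cells was 1, Pold1, with a difference of -0.33 (adjusted p = 0.0432, limma). The cause was not tested. With any single array left out the counts were 0 throughout (lowest 0, highest 0). With the replicate number as a block the counts stayed at 0, and the smallest adjusted p was 0.0563 (Pold1, DNMAML-DMSO against MigR1-DMSO, limma). The median SE of a member's difference was 0.10, against 0.153 without it, and the block changed no call of a member. Of all 19938 genes, the block fit called 934 in that comparison and 960 in ICN1-GSI against MigR1-GSI cells, against 386 and 469 without it. The rates of calls given above are those of the fit without the block. Without the 8 arrays numbered 3, an alternative chosen after seeing the data, the counts were also 0. Only some of the single-gene differences were recomputed under every alternative. Among the single-gene differences recomputed under every alternative, those that changed sign were of Mcm7 in MigR1-GSI against MigR1-DMSO cells (0.016 with array weights, 0.10 without replicate number 3, and from -0.40 to 0.16 with 1 array left out, the highest without MigR1-GSI number 3) and of Gins2 (from -0.042, without MigR1-DMSO number 3, to 0.50 in DNMAML-DMSO against MigR1-DMSO cells, and from -0.56 to 0.040, without R1984A-GSI number 3, in R1984A-GSI against MigR1-GSI cells). The cause was not tested. With 1 array left out, by differences of means, 309 of all 504 differences of the 42 genes took both signs. Among them were those of Orc1, Cdc6 and Cdt1 in ICN1-GSI against MigR1-GSI cells. Such a fit also unbalances the replicate numbers, so these changes include the shift of the arrays numbered 3.

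The filter on dim genes kept 10527 genes with means above 4.01, including all 42 members, E2f2 by a narrow margin. Many intervals held changes of under 2-fold, transcript levels say nothing of protein or of phase, and no direct measure of cell cycle stage was analysed here.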

Other observations

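Among the other replication genes, the differences with the lowest unadjusted p-values were picked out after their values were seen, and several are of regulators of the G1/S transition. Rb1, the retinoblastoma protein that holds E2f factors in check, averaged 7.53 ± 0.47 in ICN1-GSI and 8.10 ± 0.15 in MigR1-GSI cells (SD, n = 3 each), a log2 difference of -0.58 (SE 0.16, adjusted p = 0.0719, limma). E2f7, a repressor among the E2f factors, averaged 5.06 ± 0.13 in ICN1-GSI and 5.55 ± 0.08 in MigR1-GSI cells (difference -0.49, adjusted p = 0.0823, limma). Cdc25a, the phosphatase that activates Cdk2, averaged 7.30 ± 0.12 in ICN1-GSI and 6.96 ± 0.04 in MigR1-GSI cells (difference 0.34, adjusted p = 0.111, limma). Without the inhibitor, ICN1-DMSO differed from MigR1-DMSO cells by -0.11 in Rb1, -0.29 in E2f7 and -0.01 in Cdc25a. In DNMAML-DMSO cells Cdc25a averaged 6.87 ± 0.18, and in MigR1-DMSO cells 7.17 ± 0.07 (difference -0.30, adjusted p = 0.212, limma). None of these passed the threshold, and the first 3 share the MigR1-GSI arrays. Rb1, E2f7 and Cdc25a are among 5 of the 45 other replication genes at an unadjusted p under 0.05 in ICN1-GSI against MigR1-GSI cells. That share is close to the 10.7% of all genes, so the list does not stand out there. Pold4, a small subunit of polymerase delta, differed by 0.56 between R1984A-DMSO and ICN1-DMSO cells (adjusted p = 0.143, limma). In DNMAML-DMSO against MigR1-DMSO cells, where Pold1 was on the lower side, Pold4 was higher by 0.45 (adjusted p = 0.239, limma).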
